A study of Mus musculus with 12 samples.

Results

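The genes described here are 33 enzymes, transporters, regulators and signalling proteins of glucose metabolism in mouse liver, chosen by name. All 33 were found by gene symbol among the 31114 genes joined from the 12 livers, and 32 of them were among the 8846 genes tested. *Foxo1* was the member left out of the tests, because it reached 5 TPM (a transcript level per length, scaled to a fixed sum in each liver) in fewer than 4 livers. By role, 14 members belong to glycolysis and sugar uptake, 3 to the entry of pyruvate into mitochondria, 5 to gluconeogenesis, 6 to glycogen and 5 to insulin signalling.

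The livers came from hFIX-R29X mice of 8 to 14 weeks, a hemophilia B model that lacks the mouse factor IX gene and carries a human FIX minigene with a nonsense codon, whose human transthyretin promoter largely restricts it to hepatocytes. All 3 groups shared this genotype, and each held 2 females (replicates 1 and 2) and 2 males (replicates 3 and 4). The mice received DPBS, a phosphate-buffered saline vehicle, a Control-GalNAc-ASO at 15 mg/kg or an Upf3b-GalNAc-ASO at 10 mg/kg. An ASO is an antisense oligonucleotide that leads RNase H to cut the RNA it pairs with, and GalNAc is a sugar that directs it to hepatocytes. By the protocol there were 6 doses at intervals of 5 days and livers were taken 48 h after the last of them, while a tag of the labels names the dosing as weekly. Fasting state and hour of collection were not given in the sources used here. UPF3B is a factor of nonsense-mediated mRNA decay (NMD), the pathway that removes transcripts with premature stop codons, and the comparisons ask which liver transcripts differed when it was depleted.

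The liver keeps blood glucose steady by storing it as glycogen after a meal and by releasing it in fasting, from glycogen and by gluconeogenesis from lactate and amino acids. Insulin, acting through its receptor and the IRS adaptors, favours storage and glycolysis and represses transcription of *Pck1*, *G6pc* and *Igfbp1*, whereas glucagon and glucocorticoids induce them. Much of this control is on enzyme activity rather than on transcript level, and several of these genes also follow the time of day.

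The letters of the ASOs that the study lists under these names are printed here because the target and the closest partial match among the 33 genes can be read from them. Each has 16 bases with modified wings of 3 bases (lower case) around a gap of 10 DNA bases (capitals). They are listed for the oligonucleotides without GalNAc, which the study calls the parent ASOs.
Upf3b-ASO: ggaTATAGATGTAacg
Control ASO: ggcCAATACGCCGtca
Among the transcripts of 8840 tested genes, the complement of all 16 bases of the Upf3b-ASO occurred only in *Upf3b*, in exon 10 of 10 of Upf3b-201, in its 3′ UTR at chrX:37091973-37091988 on the minus strand of GRCm38. The site is shown in capitals with 6 bases on each side.
Upf3b site: tagtcaCGTTACATCTATATCCtgtgtc
Of the 33 members, *Gbe1* held the longest stretch complementary to the Upf3b-ASO, 11 bases that pair with ASO bases 6 to 16, counted from its 5′ end. The next longest stretch in any member had 9 bases, and *Pck1* had 7. At least 11 bases were found in 36 of the 8840 genes, or 0.407%. The stretch lies at chr16:70529282-70529292 on the plus strand, in exon 14 of 14 of Gbe1-204, a retained-intron transcript, and of Gbe1-207, where it is 3′ UTR. In DPBS livers these transcripts held on average 2.92% and 0.705% of the TPM of *Gbe1*. The main transcripts, Gbe1-203 (50.2%) and Gbe1-206 (35.8%), did not hold the stretch.
Gbe1 stretch: tttcatCGTTACATCTAataatc
The control ASO had its longest complementary stretch among the members, 9 bases, in *Pygl*. At least 9 bases were found in 1.81% of the genes, and no tested gene held the full complement. These matches describe letters in spliced transcripts. Introns were not searched, and cutting at any of them was not tested.

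Depth ranged from 13.28 to 20.39 M estimated counts per liver (M, mega). It was 18.5 to 20.39 M with DPBS, 17.64 to 18.76 M with control ASO and 13.28 to 17.05 M with Upf3b-ASO. Every Upf3b-ASO liver was thus sequenced less deeply than every other liver, and the part of depth in the comparisons was not tested. *Upf3b* stood at 9.38 to 13.4 CPM (gene counts relative to the TMM-normalized library size) with DPBS, 7.93 to 12 with control ASO and 0.651 to 1.58 with Upf3b-ASO, a log2 fold change of -3.30 ± 0.27 (SE) against control ASO with an adjusted p of 7.4e-05 (edgeR quasi-likelihood test, as for all adjusted p-values here unless another tool is named). The summed level of 10 hepatocyte markers was 70202 to 120320 CPM per liver, while *Cd3e*, *Cd3g*, *Cd79a* and *Nkg7* (lymphocytes), *Cftr* and *Krt19* (bile ducts) and *Ly6g* (neutrophils) were under 1 CPM in every liver. The other markers on these lists were not. Per liver, the 6 lymphocyte markers summed to 18.7 to 38.5 CPM, the 6 bile duct markers to 18.8 to 55.0 CPM and the 7 neutrophil markers to 1.85 to 49.6 CPM. The summed markers of each of the 8 cell types listed overlapped between the 3 groups. Among control ASO livers other than replicate 3, the highest sums were 3018 CPM for erythroid, 49.6 CPM for neutrophil and 838 CPM for Kupffer cell and macrophage markers. The highest sums among DPBS and Upf3b-ASO livers were 549, 3.58 and 578 CPM. In bulk liver, fewer cells of a type and less RNA per cell cannot be told apart. Control ASO replicate 3, a male, stood apart: its 18 acute phase genes summed to 101728 CPM, where its 3 group mates had 14096 to 19122, its 16 immediate early and stress genes to 2637 against 178 to 289, and its 9 sinusoidal endothelial markers to 339 against 500 to 630. It was the highest of the 12 livers for 31.1% of all tested genes and the lowest for 32%. Because all livers share an estimate of the spread, comparisons are given with and without it.

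The 33 genes together held 0.947% to 1.41% of the estimated counts of a liver. Transcript levels per length spanned from *Pck1*, with 1998 ± 162 TPM (SD, n = 4) in DPBS livers, to *Foxo1*, with 3.59 ± 0.538 TPM. *Pck1* encodes phosphoenolpyruvate carboxykinase, the enzyme that commits oxaloacetate to gluconeogenesis. *Fbp1*, fructose bisphosphatase, followed at 1461 ± 209 TPM and did not overlap *Pck1*, and *Gapdh*, the glycolytic dehydrogenase that the study used as its qPCR reference, came next at 766 ± 71.5 TPM. *Khk*, the ketohexokinase that brings fructose into glycolysis, stood at 589 ± 62.6 TPM and *Pygl*, liver glycogen phosphorylase, at 471 ± 44.5 TPM. *Slc2a2* (the glucose transporter GLUT2, 410 ± 87.4 TPM), *Ldha* (lactate dehydrogenase A, 390 ± 66.4 TPM) and *G6pc* (the catalytic subunit of glucose-6-phosphatase, 386 ± 86.2 TPM) lay within each other's SD. The lower end held the signalling adaptors *Irs2* (10.9 TPM) and *Irs1* (7.97 TPM) beside the transcription factor gene *Foxo1*. Estimated counts per liver ranged from 30371 to 71188 for *Pck1* and from 67 to 458 for *Pfkfb1*, the member with the lowest minimum count. *Gapdh*, *Pgk1*, *Tpi1*, *Eno1*, *Ldha* and *Pgam1* have processed pseudogenes of near-identical sequence, between which Salmon may have split reads, so their levels are uncertain to that extent. The TPM ranks of *Gapdh* and *Khk* also rest on short retained-intron transcripts. In DPBS livers, Gapdh-206 (565 bases) held 63.6% of the *Gapdh* TPM and Khk-202 (544 bases) 50.9% of that of *Khk*. Short transcripts, coding or not, held large shares of other members too in DPBS livers. Among them were Fbp1-203 (612 bases, 39.4%), Pygl-204 (329 bases, 31.0%), Gys2-202 (314 bases, 52.4%) and Pklr-203 (349 bases, 42.5%). By CPM in these livers, *Gapdh* (261 ± 32.7) and *Khk* (314 ± 25.1) stood below *Slc2a2* (682 ± 75.1), *Pygl* (696 ± 30.1) and *G6pc* (699 ± 170; SD, n = 4).

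**Figure D1:**
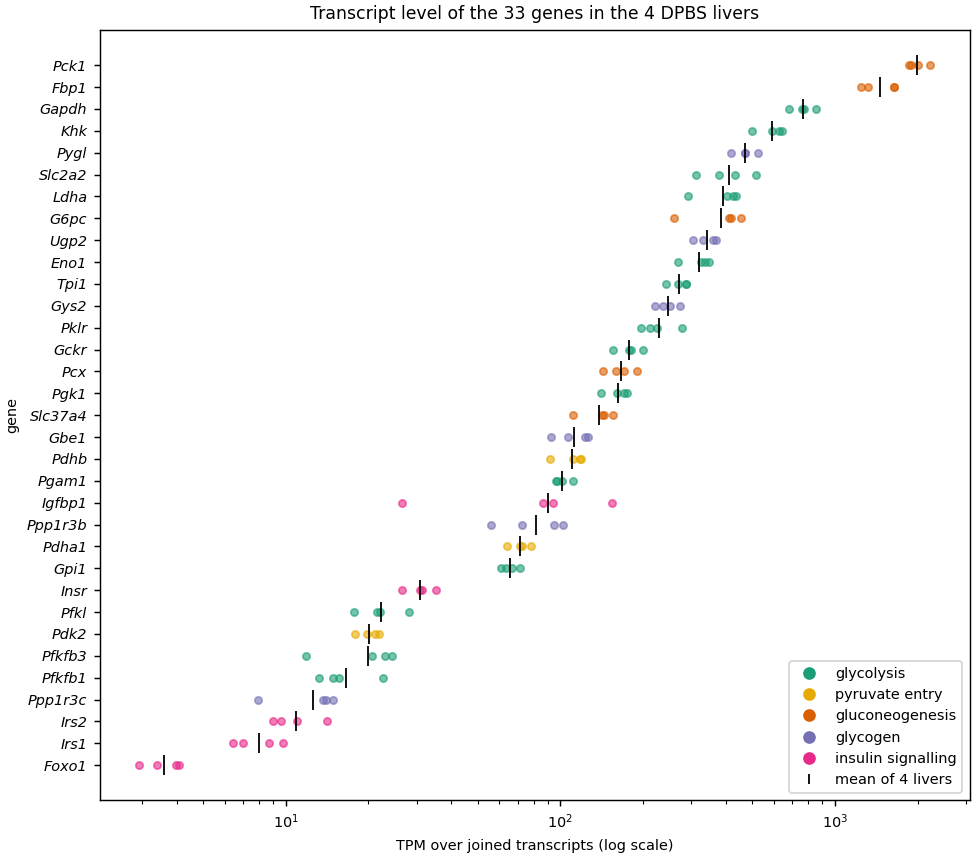
Transcript level (TPM rescaled over the joined transcripts, log scale) of the 33 genes in the 4 DPBS livers, where each point is a liver, black ticks are means and colours are roles. *Pck1* (mean 1998 TPM) and *Fbp1* (1461 TPM) lead, and the insulin signalling genes *Irs2*, *Irs1* and *Foxo1* are the lowest.

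Among the 11 livers other than control ASO replicate 3, the members differed widely in how constant they were. *Pcx* (pyruvate carboxylase), *Eno1* (enolase) and *Pdha1* (a subunit of pyruvate dehydrogenase) varied least, with ratios of the highest to the lowest liver of 1.26, 1.28 and 1.30. The ratio was 6.02 for *Igfbp1*, a secreted binding protein of insulin-like growth factors, 4.96 for *Pfkfb3*, 4.94 for *G6pc*, 3.70 for *Ppp1r3c* and 2.87 for *Ppp1r3b*. *Pfkfb3* and the *Ppp1r3* genes, are known to respond to hormones and nutrients, as are *Igfbp1* and *G6pc*.

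With Upf3b-ASO, 1 of the 32 tested members fell against control ASO and none rose, where 10.3% of all tested genes were called. The gene was *Pck1*. Against DPBS, 2 members fell, *Pck1* and *Gbe1*, where 8.93% of all genes were called. Among the members, 8 had an unadjusted p under 0.05 against control ASO, where 28% of all genes did, and 7 against DPBS, where 23.2% did. The median log2 fold change of the 32 members was -0.24 against control ASO, with 8 above and 24 below 0 (all genes, -0.02), but -0.04 without control ASO replicate 3 (all genes, 0.01) and -0.05 against DPBS (all genes, 0.00). Both comparisons use the same Upf3b-ASO livers.

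Without control ASO replicate 3, 7 members were called against control ASO, 3 higher and 4 lower, where 24.5% of all genes were called. *Pck1*, *Gys2*, *Slc37a4* and *Pfkl* were lower, and *Pgam1*, *Pygl* and *Khk* were higher. Against DPBS, a comparison that does not contain this liver, 10 members were called without it, 3 higher and 7 lower, where 28.7% of all genes were called. *Pck1*, *Slc37a4*, *Gys2*, *Gbe1*, *Ppp1r3b*, *Insr* and *Pdhb* were lower, and *Gpi1*, *Tpi1* and *Pgam1* were higher. A fit of the Upf3b-ASO and DPBS groups alone also called 10 members, where 28% of all genes were called, with *Pfkfb3* in place of *Insr*. Weights for sample quality (limma voom) gave 12 members against control ASO, where 32.4% of all genes were called. *Pfkl*, *Pfkfb3*, *Pck1*, *Slc37a4*, *Gys2*, *Gbe1* and *Insr* were lower, and *Gpi1*, *Pgam1*, *Khk*, *G6pc* and *Pygl* were higher. The DESeq2 Wald test gave 8, where 17.9% were. *Pfkl*, *Pfkfb3*, *Pck1*, *Slc37a4*, *Gbe1* and *Igfbp1* were lower, and *G6pc* and *Pygl* were higher. The members' shares were near those of all genes in each of these fits except DESeq2, where 8 of 32 is the larger share.

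**Figure D2:**
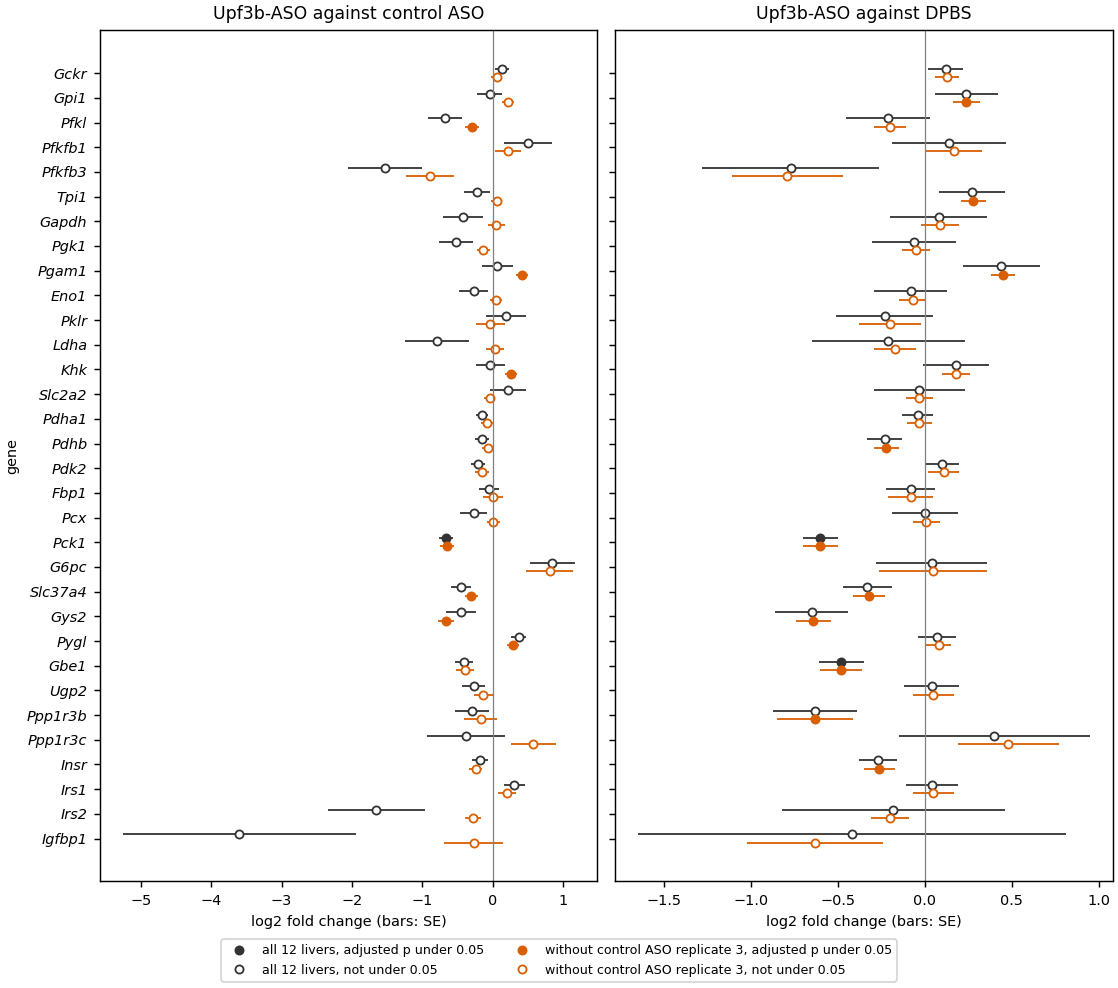
Log2 fold change (points) with its SE (bars) of the 32 tested members for Upf3b-ASO against control ASO (left) and DPBS (right), from all 12 livers (black) and without control ASO replicate 3 (orange), with adjusted p-values under 0.05 as filled points. *Pck1* is filled in all 4 fits, and without that liver 7 members on the left and 10 on the right are filled.

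In gluconeogenesis, with all 12 livers, edgeR called *Pck1* in both Upf3b-ASO comparisons and the other 4 members in neither, while DESeq2 also called *G6pc* (adjusted p 0.047) and *Slc37a4* (adjusted p 0.023) against control ASO. *Pck1* (chr2:173153048-173159273, plus strand) stood at 3705, 3189, 3653 and 3749 CPM in DPBS replicates 1 to 4, at 3866, 3887, 3663 and 3512 CPM in control ASO replicates and at 2722, 2479, 2246 and 2011 CPM in Upf3b-ASO replicates. Each Upf3b-ASO liver lay below all 8 others, and the DPBS and control ASO groups overlapped. The group means were 3574 ± 259, 3732 ± 178 and 2364 ± 306 CPM (SD, n = 4). *Pck1* was 1.58-fold lower than with control ASO, with a log2 fold change of -0.66 ± 0.10 (SE, adjusted p 0.0034), and 1.52-fold lower than with DPBS, with -0.60 ± 0.10 (adjusted p 0.0055). Without control ASO replicate 3 the log2 fold changes were -0.65 (adjusted p 0.0015) and -0.60 (adjusted p 0.0013), and that liver, with 3663 CPM, was among the other controls for this gene.

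At the transcript level, the call was on the main isoform of *Pck1*. Pck1-201, the coding transcript, held 82.5 ± 1.59% of the gene's TPM with DPBS, 84.1 ± 2.71% with control ASO and 84.7 ± 2.14% with Upf3b-ASO (SD, n = 4). Of 123 tested transcripts of the members it was the transcript called against control ASO, at -0.62 ± 0.10 (log2, SE, adjusted p 0.021), where 1% of 32673 transcripts were called. It was not called with the replicate block, with limma, or without any of 6 of the 8 livers compared (control ASO replicates 1, 2 and 4, Upf3b-ASO replicates 2, 3 and 4). The retained-intron transcript Pck1-204 had a log2 fold change of -1.02 ± 0.25 (SE, adjusted p 0.10), farther from 0 than that of Pck1-201. The shares of the isoforms overlapped between the groups.

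The promoter window of *Pck1* in RefSeq (GRCm38.p6, 250 bases before to 50 after the start, chr2:173152823-173153122, plus strand) is shown because this gene carries the clearest difference. It holds TTACGTCA (capitals), known as the cAMP response element of this gene, through which glucagon acts, from position -93 relative to the start.
Pck1 promoter: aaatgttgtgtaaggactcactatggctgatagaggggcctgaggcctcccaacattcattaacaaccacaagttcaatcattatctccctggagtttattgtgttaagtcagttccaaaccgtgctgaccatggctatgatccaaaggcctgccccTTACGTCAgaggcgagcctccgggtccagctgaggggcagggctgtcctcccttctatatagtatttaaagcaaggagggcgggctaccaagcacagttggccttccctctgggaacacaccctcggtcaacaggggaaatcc
On either strand, TTACGTCA occurred in the window of no other member and in 0.499% of 32851 windows of all genes. Windows were found for 30 of the 33 members, 43 windows in all. A member is named if any of its windows holds the letters, while the percentages count single windows, so the 2 are not alike. The palindromic form TGACGTCA occurred in *Ldha* (1.79% of all windows). CAAAACA, the core of the insulin response sequence through which FOXO1 acts on *G6pc* and *Igfbp1*, occurred in *Gckr*, *G6pc*, *Irs1*, *Irs2* and *Igfbp1* (6.28% of all windows). In *G6pc* it lies on the other strand from position -174, within chr11:101367531-101367560, and in *Igfbp1* from position -108, within chr11:7197668-7197697, both printed on the plus strand with the match in capitals.
G6pc stretch: ttttgtgtgccTGTTTTGctattttacgta
Igfbp1 stretch: gagctcacaagCAAAACAaacttattttga
The forkhead core TGTTTAC occurred in no member's window (3.65% of all windows), the E-box CACGTG, to which clock and carbohydrate-responsive factors bind, in *Pfkfb3*, *Ldha*, *Khk*, *Pdk2*, *Pcx*, *Ppp1r3c*, *Irs1* and *Irs2* (7.15%), and TATAAA in *Pfkfb1*, *Pklr*, *G6pc* and *Slc37a4* (13.6%).

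*G6pc*, which releases free glucose, stood at 752, 445, 811 and 786 CPM with DPBS, at 447, 172, 389 and 598 CPM with control ASO and at 849, 744, 637 and 576 CPM with Upf3b-ASO. The Upf3b-ASO and DPBS groups overlapped over most of their range, while control ASO replicate 2 lay far below the other livers. The log2 fold change with Upf3b-ASO was 0.85 ± 0.32 (SE) against control ASO (adjusted p 0.12) and 0.04 ± 0.32 against DPBS (adjusted p 0.96), and without control ASO replicate 3 the former was 0.81 ± 0.34 (adjusted p 0.10). *Slc37a4* (chr9:44396852-44402968, plus strand) encodes the transporter that brings glucose-6-phosphate to that enzyme in the endoplasmic reticulum. Its levels were 220, 210, 186 and 226 CPM with DPBS, 202, 203, 291 and 219 CPM with control ASO and 184, 185, 162 and 141 CPM with Upf3b-ASO. All 4 Upf3b-ASO livers lay below the 8 others, the nearest of which was DPBS replicate 3 at 186 CPM. The log2 fold change of *Slc37a4* was -0.45 ± 0.14 (SE) against control ASO (adjusted p 0.069) and -0.33 ± 0.14 against DPBS (adjusted p 0.19), and without control ASO replicate 3, its highest liver, -0.30 ± 0.09 (adjusted p 0.042) and -0.32 ± 0.09 (adjusted p 0.018). *Fbp1* and *Pcx* had log2 fold changes between -0.27 and 0.00 in both comparisons, with adjusted p-values of 0.38 or more, and against control ASO without replicate 3 both were at 0.01.

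Whole groups that did not overlap can be counted for all genes in the same way. Against control ASO, 4 members were lower in all Upf3b-ASO livers (*Gbe1*, *Pck1*, *Pfkl* and *Slc37a4*), where 7.69% of all genes were, and *Pygl* was higher, where 7.74% were. Against DPBS, 4 members were lower (*Gbe1*, *Gys2*, *Pck1* and *Slc37a4*), where 12% of all genes were, and *Gpi1* was higher, where 10.4% were. Below all 8 other livers lay 3 members, *Gbe1*, *Pck1* and *Slc37a4*, where 5.36% of all genes did, and above all 8 lay none, where 4.54% did.

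**Figure D3:**
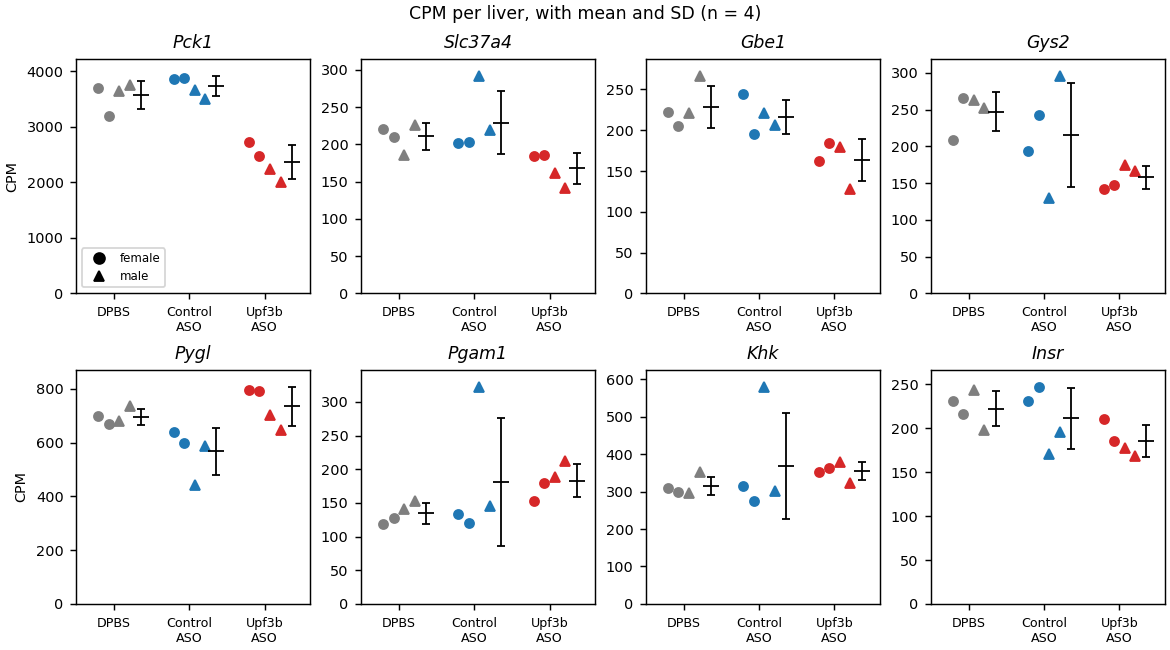
CPM per liver of 8 members (circles, females; triangles, males), with the mean and SD of each group (n = 4) beside the points and axes from 0. *Pck1*, *Slc37a4* and *Gbe1* are lower in all 4 Upf3b-ASO livers than in the 8 others, and control ASO replicate 3 is far from its group for *Pgam1* and *Khk*.

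In glycogen metabolism, *Gbe1* was the member that edgeR called with all 12 livers, against DPBS. *Gbe1* (chr16:70313949-70569716, plus strand) encodes the branching enzyme. It stood at 222, 205, 221 and 266 CPM with DPBS, at 244, 195, 221 and 206 CPM with control ASO and at 162, 184, 180 and 128 CPM with Upf3b-ASO. The Upf3b-ASO livers did not overlap either other group. *Gbe1* was 1.40-fold lower than with DPBS, with a log2 fold change of -0.48 ± 0.13 (SE, adjusted p 0.047), close to the threshold, and the call was lost when any of the 8 livers of these groups was left out (adjusted p 0.056 to 0.14). Relative to control ASO it differed by -0.41 ± 0.13 (log2, adjusted p 0.078), and without control ASO replicate 3 it was -0.39 ± 0.13 (adjusted p 0.055). Without that liver the adjusted p of *Gbe1* against DPBS was 0.015. With all 12 livers, DESeq2 called *Gbe1* against DPBS (adjusted p 0.0081) and against control ASO (adjusted p 0.027). Voom quality weights did so too (adjusted p 0.0097 and 0.048).

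*Gys2* (chr6:142422613-142473109, minus strand), liver glycogen synthase, showed a difference whose edgeR call depended on control ASO replicate 3. Its levels were 208, 265, 263 and 252 CPM with DPBS, 194, 243, 130 and 295 CPM with control ASO and 142, 148, 175 and 167 CPM with Upf3b-ASO. The Upf3b-ASO livers lay below all DPBS livers and below all control ASO livers except replicate 3, which was the lowest of the 12. With all livers the log2 fold change of *Gys2* was -0.65 ± 0.21 (SE) against DPBS (adjusted p 0.083) and -0.45 ± 0.21 against control ASO (adjusted p 0.18). Without that liver it was -0.64 ± 0.10 (adjusted p 8.6e-04) and -0.66 ± 0.11 (adjusted p 0.0014). With all 12 livers, *Gys2* was called against DPBS by DESeq2 (-0.64, adjusted p 0.025) and with voom quality weights (-0.65, adjusted p 3.2e-04).

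*Pygl* (chr12:70190811-70231488, minus strand), which breaks glycogen down, went the other way against control ASO but not against DPBS. It stood at 698, 668, 681 and 737 CPM with DPBS, at 639, 600, 442 and 588 CPM with control ASO and at 794, 793, 702 and 647 CPM with Upf3b-ASO. The control ASO livers were the lowest group, and the Upf3b-ASO livers overlapped the DPBS livers. The log2 fold change of *Pygl* was 0.37 ± 0.11 (SE) against control ASO (adjusted p 0.057; 0.29 ± 0.08 and adjusted p 0.027 without control ASO replicate 3) and 0.07 ± 0.11 against DPBS (adjusted p 0.77).

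*Ppp1r3b*, a subunit that brings protein phosphatase to glycogen and so activates the synthase, stood at 305, 225, 200 and 321 CPM with DPBS, at 228, 164, 236 and 202 CPM with control ASO and at 225, 230, 132 and 112 CPM with Upf3b-ASO. Both Upf3b-ASO males were the lowest of the 12 livers and both females lay within the other groups. Against DPBS its log2 fold change was -0.63 ± 0.24 (SE, adjusted p 0.14), and without control ASO replicate 3 -0.63 ± 0.22 (adjusted p 0.05, under the threshold before rounding). *Ppp1r3c*, another such subunit, was at 17.7 to 32.2 CPM in 10 livers, at 65.5 CPM in Upf3b-ASO replicate 3 and at 141 CPM in control ASO replicate 3. *Ugp2*, which makes the UDP-glucose from which glycogen is built, had adjusted p-values of 0.29 or more in both comparisons.

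In glycolysis, edgeR called no member in either Upf3b-ASO comparison with all 12 livers, while DESeq2 called *Pfkl* (adjusted p 0.048) and *Pfkfb3* (adjusted p 0.014) against control ASO. The median log2 fold change of the 14 genes was -0.13 against control ASO, 0.05 without control ASO replicate 3 and 0.03 against DPBS. *Pgam1* (chr19:41911923-41918660, plus strand), phosphoglycerate mutase, stood at 118, 127, 141 and 153 CPM with DPBS, at 134, 120, 322 and 146 CPM with control ASO and at 153, 179, 188 and 212 CPM with Upf3b-ASO. Upf3b-ASO replicate 1 was level with DPBS replicate 4 after rounding, and the other 3 Upf3b-ASO livers lay above every liver except control ASO replicate 3. Its log2 fold change was 0.44 ± 0.22 (SE) against DPBS (adjusted p 0.26) and 0.07 ± 0.22 against control ASO (adjusted p 0.87), and without that liver 0.45 ± 0.07 (adjusted p 0.0013) and 0.42 ± 0.08 (adjusted p 0.004).

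*Tpi1*, triose phosphate isomerase, stood at 242, 240, 243 and 281 CPM with DPBS, at 311, 271, 571 and 281 CPM with control ASO and at 278, 285, 325 and 328 CPM with Upf3b-ASO. The Upf3b-ASO livers overlapped both other groups. Against DPBS its log2 fold change was 0.27 ± 0.19 (SE, adjusted p 0.43), and without control ASO replicate 3 0.28 ± 0.07 (adjusted p 0.017). *Gpi1*, glucose phosphate isomerase, stood at 92.0, 87.2, 97.0 and 103 CPM with DPBS, at 107, 84.3, 175 and 96.6 CPM with control ASO and at 115, 114, 111 and 106 CPM with Upf3b-ASO. All 4 Upf3b-ASO livers were above the DPBS livers, by a log2 fold change of 0.24 ± 0.18 (SE, adjusted p 0.47; 0.24 ± 0.08 and adjusted p 0.038 without control ASO replicate 3).

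*Khk* stood at 310, 300, 297 and 351 CPM with DPBS, at 315, 275, 579 and 301 CPM with control ASO and at 352, 364, 380 and 322 CPM with Upf3b-ASO. Its sign against control ASO turned with control ASO replicate 3, from -0.03 ± 0.20 (log2, SE, adjusted p 0.94) with that liver to 0.26 ± 0.09 (adjusted p 0.05, under the threshold before rounding) without it, and against DPBS it was 0.18 ± 0.19 (adjusted p 0.65). *Pfkl*, the liver phosphofructokinase that sets the pace of glycolysis, stood at 44.3, 37.4, 38.0 and 43.4 CPM with DPBS, at 49.5, 41.2, 98.4 and 39.7 CPM with control ASO and at 36.3, 33.9, 38.2 and 32.6 CPM with Upf3b-ASO. The Upf3b-ASO livers lay below every control ASO liver and overlapped the DPBS livers. *Pfkl* differed from control ASO by -0.68 ± 0.24 (log2, SE, adjusted p 0.10), and without replicate 3 -0.29 ± 0.10 (adjusted p 0.048).

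*Pfkfb3* encodes an inducible enzyme that makes an activator of phosphofructokinase, a fructose bisphosphate other than the substrate of fructose bisphosphatase. *Pfkfb3* stood at 14.4, 24.7, 33.3 and 28.6 CPM with DPBS, at 11.2, 18.0, 134 and 52.6 CPM with control ASO and at 10.6, 15.6, 11.6 and 18.3 CPM with Upf3b-ASO. The groups overlapped, with both control ASO males above all other livers. Its log2 fold change was -1.53 ± 0.53 (SE) against control ASO (adjusted p 0.093) and -0.77 ± 0.51 against DPBS (adjusted p 0.41). Without control ASO replicate 1 the former was -1.94 (adjusted p 0.042). The other 8 glycolytic members (*Gckr*, *Pfkfb1*, *Gapdh*, *Pgk1*, *Eno1*, *Pklr*, *Ldha* and *Slc2a2*) had log2 fold changes from -0.23 to 0.14 against DPBS, with adjusted p-values of 0.52 or more, and their adjusted p-values against control ASO were 0.18 or more.

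At the entry of pyruvate into mitochondria, *Pdhb*, a subunit of pyruvate dehydrogenase, stood at 114, 110, 105 and 128 CPM with DPBS, at 100, 92.0, 130 and 111 CPM with control ASO and at 91.6, 95.7, 108 and 94.4 CPM with Upf3b-ASO. Upf3b-ASO replicate 3 lay inside the DPBS range and the other 3 below it. Its log2 fold change against DPBS was -0.23 ± 0.10 (SE, adjusted p 0.18), and without control ASO replicate 3 -0.22 ± 0.07 (adjusted p 0.037), while against control ASO it was -0.15 ± 0.10 (adjusted p 0.34). *Pdha1*, the other subunit of the same component, had -0.04 ± 0.09 against DPBS (adjusted p 0.84), and *Pdk2*, a kinase that inhibits the complex, 0.10 ± 0.10 (adjusted p 0.63).

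In insulin signalling, edgeR called no member in either Upf3b-ASO comparison with all 12 livers. *Insr*, the insulin receptor, stood at 231, 216, 244 and 198 CPM with DPBS, at 231, 247, 171 and 196 CPM with control ASO and at 211, 185, 177 and 169 CPM with Upf3b-ASO. The groups overlapped, with 3 of the 4 Upf3b-ASO livers below the lowest DPBS liver. The log2 fold change of *Insr* against DPBS was -0.27 ± 0.11 (SE, adjusted p 0.16), and without control ASO replicate 3 -0.26 ± 0.09 (adjusted p 0.044). With voom quality weights *Insr* was called against DPBS (adjusted p 0.022) and against control ASO (adjusted p 0.017).

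*Igfbp1* had the widest spread of the members and no edgeR call in either Upf3b-ASO comparison. It stood at 152, 88.9, 31.2 and 105 CPM with DPBS, at 91.3, 79.6, 3166 and 67.0 CPM with control ASO and at 113, 117, 26.0 and 25.3 CPM with Upf3b-ASO. Control ASO replicate 3 lay far above every other liver, and both Upf3b-ASO males and DPBS replicate 3 were the lowest. Relative to control ASO it differed by -3.60 ± 1.66 (log2, SE, adjusted p 0.19) with control ASO replicate 3 and -0.27 ± 0.42 (adjusted p 0.68) without it, and DESeq2 called it with all 12 livers (-3.63, adjusted p 0.022). *Irs2*, whose transcript insulin represses, was at 22.4 to 40.2 CPM in 11 livers and at 305 CPM in control ASO replicate 3, and *Irs1* at 41.0 to 72.5 CPM in those 11 and at 32.8 CPM in that liver. *Foxo1*, which was not tested, was at 15.2 to 30.7 CPM in the 11 livers and at 102 CPM in control ASO replicate 3.

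Control ASO against DPBS compares an oligonucleotide without a listed target with vehicle. No member was called, where 0.0113% of all genes were (1 gene), and the lowest adjusted p of the members was 0.64. DESeq2 also called none of them, and edgeR called none without control ASO replicate 3 (lowest adjusted p 0.39), where 0.0565% of all genes were called. At an unadjusted p under 0.05 there were 4 members, *Pdk2*, *Pygl*, *Tpi1* and *G6pc*, where 6.97% of all genes reached this. *Pck1* differed by a log2 fold change of 0.06 ± 0.10 (SE, adjusted p 0.83) and *Gbe1* by -0.08 ± 0.13 (adjusted p 0.82).

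Control ASO replicate 3 itself showed a broad difference in these genes, given here as values of an individual animal with no test. It was the highest of the 12 livers for 19 of the 32 tested members and the lowest for 7, beside the 31.1% and 32% of all genes given above. For 7 members it was over 2 times the highest of the other 11 livers, where 5.08% of all genes were: *Igfbp1*, *Irs2*, *Ppp1r3c*, *Pfkfb3*, *Ldha*, *Gapdh* and *Pgk1*. Relative to the mean of the other 3 control ASO livers, *Igfbp1* was 39.9-fold higher, *Irs2* 8.32-fold, *Ppp1r3c* 6.05-fold, *Pfkfb3* 4.92-fold and *Ldha* 4.80-fold. The glycolytic enzymes *Gapdh*, *Pgam1*, *Pgk1*, *Pfkl*, *Eno1* and *Tpi1* were 2.82-, 2.42-, 2.40-, 2.26-, 2.11- and 1.98-fold higher. *Pcx* was 1.92-fold higher, at 1009 CPM.

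Other members were low in the same liver. *Pfkfb1*, the liver isoform of the enzyme that *Pfkfb3* also encodes, was 3.61-fold lower, *Slc2a2* 3.00-fold lower, *Pklr* (liver pyruvate kinase) 2.52-fold lower and *Gys2* 1.88-fold lower. *Gapdh* there reached 738 CPM against 230 to 305 CPM in the other 11 livers, *Ldha* 1764 against 304 to 461 CPM, *Slc2a2* 233 against 590 to 777 CPM, and *Pklr* 90.7 against 176 to 318 CPM. *Pck1*, *Gbe1* and *G6pc* stood at 0.976, 1.03 and 0.959 times the mean of the other 3 control ASO livers. The TMM factor of this liver was 0.775, against 0.953 to 1.12 in the others. The acute phase, stress and endothelial values given above moved with these genes in the same liver, and their part was not tested.

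**Figure D4:**
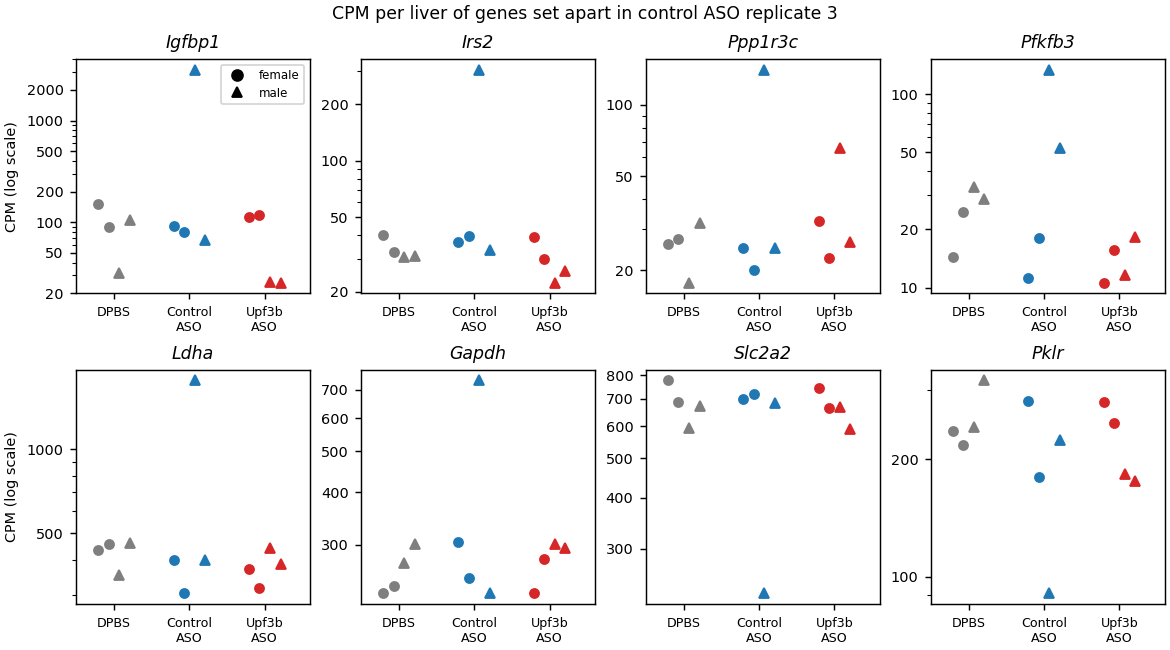
CPM per liver (log scale) of 8 members that are far from the other livers in control ASO replicate 3 (circles, females; triangles, males). That liver is at 3166 CPM for *Igfbp1*, 305 CPM for *Irs2* and 1764 CPM for *Ldha*, above all others, and at 233 CPM for *Slc2a2* and 90.7 CPM for *Pklr*, below all others.

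Between the sexes, *Gckr* was called with all 12 livers, where 10% of all genes were called. It encodes the regulatory protein that holds glucokinase in the nucleus. Its levels were 182 to 230 CPM in the 6 females and 145 to 188 CPM in the 6 males, which overlapped, with a log2 difference, males minus females, of -0.28 ± 0.08 (SE, adjusted p 0.049). *Irs1* had -0.42 ± 0.12 (adjusted p 0.052). Without control ASO replicate 3, 6 members were called, where 21.9% of all genes were: *Gckr* (-0.23), *Irs1* (-0.35), *Irs2* (-0.33) and *Igfbp1* (-1.16 ± 0.34, SE, adjusted p 0.033) lower in males, and *Pfkfb3* (0.84) and *Pgam1* (0.26) higher.

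The effect of Upf3b-ASO against control ASO did not differ between the sexes by the test of the interaction for any member, where 0% of all genes were called. At an unadjusted p under 0.05 there were 5 members, *Igfbp1*, *Irs2*, *Pfkfb3*, *Ppp1r3b* and *Slc37a4*, where 7.31% of all genes were, and DESeq2 called no member, with 7 left without an adjusted p by its filter. Without control ASO replicate 3 no member was called either (lowest adjusted p 0.76). With 2 animals per group and sex, and control ASO replicate 3 as 1 of 2 control males, the interaction of *Pck1* was -0.18 ± 0.19 (log2, SE, adjusted p 0.67). *Pck1* was below the controls in both Upf3b-ASO females and both males.

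NMD acts on some normal transcripts, so the members' transcripts with the annotated nonsense_mediated_decay biotype were examined. There were 4, in *Pfkfb3*, *Pgk1*, *Slc2a2* and *Fbp1*, among 144 member transcripts, and of the 3 that were tested none was called against control ASO. In *Slc2a2*, the transcript Slc2a2-202 of this biotype held a large share of the gene, 45.6 ± 0.681% of its TPM with DPBS, 44.5 ± 0.611% with control ASO and 43.4 ± 1.42% with Upf3b-ASO (SD, n = 4). Relative to control ASO this transcript differed by 0.14 ± 0.26 (log2, SE, adjusted p 0.89). The coding transcript of *Slc2a2* held 18.4 ± 1.42%, 19.1 ± 1.70% and 22.3 ± 1.15%, and these shares of isoforms that overlap in sequence are estimates. In *Fbp1*, *Pgk1* and *Pfkfb3* the NMD-biotype transcript held on average between 0.416% and 1.65% of the gene's TPM in each group. Retained-intron transcripts were listed for 17 members and held 66.1%, 66.4% and 63.6% of the TPM of *Gapdh* and 50.9%, 50.3% and 51.8% of that of *Khk* in the DPBS, control ASO and Upf3b-ASO groups. In 15 members the leading transcript held over 90% in every group.

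Other genes of the same pathways, from lists of their own, were read from the same fits. Of 14 tested genes of glucose uptake and glycolysis and 8 of gluconeogenesis and pyruvate entry, none was called against control ASO. Of all genes, 10.3% were called against control ASO and 8.93% against DPBS. Against DPBS, *Slc2a9*, a transporter of urate and sugars, fell by 0.86 on the log2 scale (adjusted p 0.022), and *Pdk1*, a kinase that inhibits pyruvate dehydrogenase, fell by 0.44 (adjusted p 0.042). In a list of fructose and pentose phosphate metabolism, *Akr1b3*, an aldose reductase, rose from 7.11 ± 1.63 CPM with control ASO to 10.6 ± 0.695 CPM with Upf3b-ASO (SD, n = 4), by 0.57 on the log2 scale (adjusted p 0.049).

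In the glycogen list 1 of 15 tested genes fell against control ASO, where 10.3% of all genes were called. The gene was *Gaa*, the lysosomal glucosidase of glycogen, which fell by 0.35 (adjusted p 0.031). None was called against DPBS, where 8.93% of all genes were. Of 32 tested genes of insulin and IGF signalling, 3 fell against control ASO and none rose, where 10.3% of all genes were called. Without control ASO replicate 3, 8 fell and 1 rose, where 24.5% of all genes were called. *Foxo3*, a forkhead factor restrained by insulin, fell by 0.98 against control ASO (adjusted p 2.0e-04), *Igfbp4*, a binding protein of insulin-like growth factors, by 0.71 (adjusted p 6.4e-04) and *Pde3b*, a phosphodiesterase that insulin activates to lower cAMP, by 0.51 (adjusted p 0.017). All 3 were also called lower against DPBS, where 8.93% of all genes were called. There a further gene, *Pik3ca*, a catalytic subunit of PI3 kinase, fell by 0.36 (adjusted p 0.038). Of 19 tested hormonal and nutrient regulators, 1 fell against control ASO, *Nr3c1*, the glucocorticoid receptor, by 1.03 (adjusted p 0.02), and none was called against DPBS. The shares of all genes were again 10.3% and 8.93%. Without control ASO replicate 3, 5 of them fell against control ASO, where 24.5% of all genes were called, and 7 fell and 1 rose against DPBS, where 28.7% were.

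Lists of physiological state and zonation were read beside the members, with 10.3% of all genes called against control ASO. The summed circadian and pericentral lists lay lower in all Upf3b-ASO livers than in the 8 others, while the fed, fasting, acute phase and stress sums overlapped between the groups. Of the pathway lists above, insulin and IGF signalling and the hormonal and nutrient regulators also lay lower, and the others overlapped. Insulin and IGF signalling summed to 3336 to 3676 CPM with Upf3b-ASO, against 3912 to 4356 with DPBS and 4095 to 5114 with control ASO. The regulators summed to 2205 to 2454 CPM with Upf3b-ASO, against 2584 to 2795 with DPBS and 2572 to 3667 with control ASO. The 16 circadian clock genes summed to 484 to 578 CPM in Upf3b-ASO livers, below the 809 to 868 CPM of DPBS and 864 to 1115 CPM of control ASO livers. Of 12 tested, 5 fell and 1 rose against control ASO, among them *Ciart*, *Per1* and *Dbp*, by 2.78, 2.28 and 1.44 on the log2 scale (adjusted p 0.0018, 0.042 and 0.034), and *Clock* at 0.66 (adjusted p 0.0074). The 12 pericentral zonation genes summed to 5868 to 8020 CPM with Upf3b-ASO, against 9281 to 9363 with DPBS and 8092 to 12012 with control ASO, and 3 of 9 tested fell (*Oat*, *Slc1a2* and *Glul*), where periportal genes overlapped between the groups, with 2 of 12 tested higher and 1 lower. Of 11 tested fed, lipogenic genes 2 fell (*Thrsp* and *Scd1*), and of 10 tested fasting genes 1 rose (*Ehhadh*) and 2 fell (*Acot1* and *Cpt1a*). The part of hour, feeding or zonation in the lower *Pck1*, *Slc37a4*, *Gys2* and *Gbe1* was not tested.

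**Figure D5:**
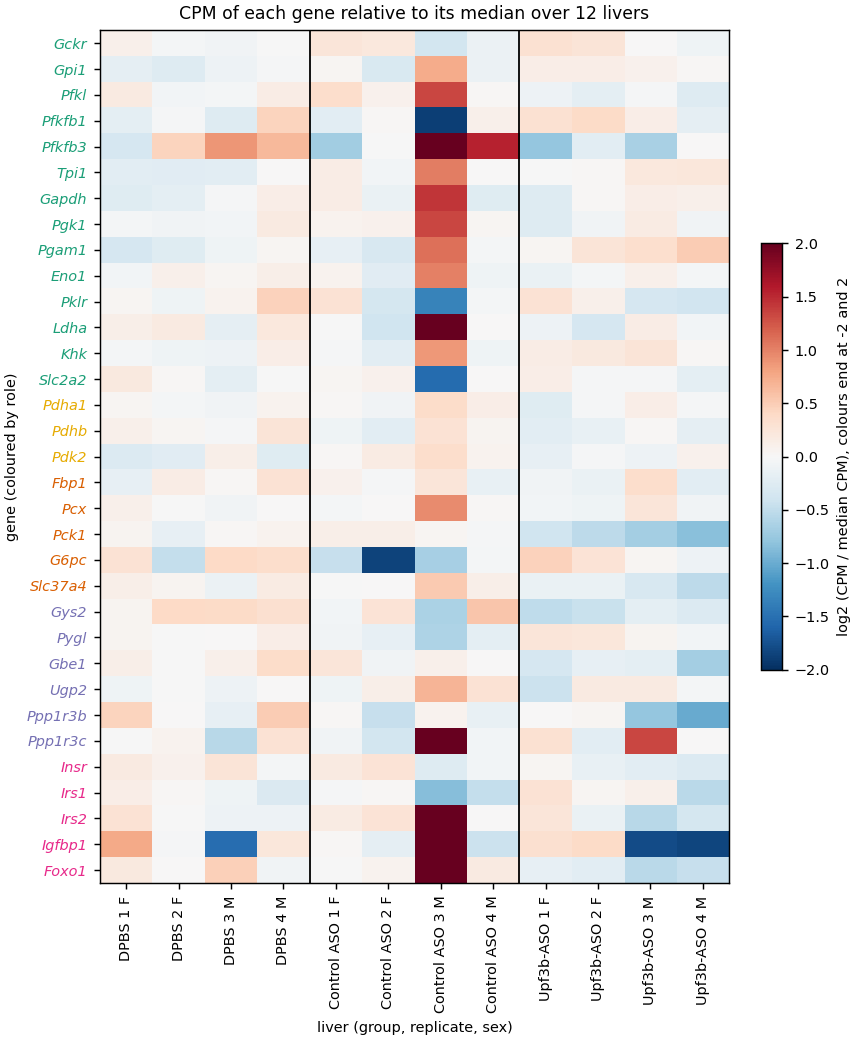
CPM of each of the 33 genes in each liver relative to the gene's median over the 12 livers (log2, colours end at -2 and 2; rows by role, columns by group, replicate and sex). Control ASO replicate 3 forms a column of strong colours in both directions, and *Pck1*, *Slc37a4* and *Gbe1* are blue in all 4 Upf3b-ASO livers.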

How the data were processed

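Total RNA of 12 livers was prepared as TruSeq libraries and sequenced on an Illumina HiSeq. Per the labels, reads were converted with bcl2fastq 2.17.1.14 and quantified with Salmon 0.7.2 on mouse build GRCm38.p4. Salmon ran in quasi-mapping mode and detected the library type itself. The authors deposited, for each transcript, an estimated count (fractional where reads are shared) and a TPM value scaled over all 92468 transcripts. Effective lengths were identical in the 12 files. Groups and sexes came from the labels, which give no library batch.

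Transcripts were joined to genes through GENCODE M21 (98.1% of transcripts, 97.51% to 99.26% of the counts per liver). Rounded gene sums of the estimated counts entered the tests, and the deposited TPM was rescaled over the joined transcripts. Genes with at least 5 TPM in at least 4 livers were tested by the quasi-likelihood test of edgeR 4.0.16 (R 4.3.3) with TMM, sex as a covariate and all 12 livers, p-values were adjusted by Benjamini-Hochberg over all tested genes, and the call was an adjusted p under 0.05. Transcripts were tested in the same way at a TPM of at least 1. The SE given for edgeR was derived from the test, as the absolute log2 fold change divided by the square root of its F statistic. The p-values measure the spread between these animals, and reads carried no molecular identifiers. The tests were checked on simulated counts with known changes. The simulated livers included none set apart like control ASO replicate 3, so the check does not cover that feature of the data.

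Alternatives covered filters, size factors and the Wald test of DESeq2 1.42.0, limma 3.58.1 on log-transformed TPM with a pseudocount of 1 or 0.1, voom quality weights, a replicate block, no sex covariate, fits of 2 groups, a length offset, the cutoffs of the study (unadjusted p of at most 0.01 and over 2-fold) and each liver left out. Leaving control ASO replicate 3 out of the comparison with DPBS was chosen after seeing the data. Per-liver values were given for members called in either Upf3b-ASO comparison or whose call appeared or was lost when a control ASO or DPBS animal was left out, and for *G6pc* and *Igfbp1*, added after their values were seen. Up to 3 called genes per direction were named from each other list by size of change. The result of 1 further gene is not reported here. The members and lists were chosen with earlier results of these data known. Promoter windows are from RefSeq (GRCm38.p6) and ASO letters from the study.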

Additional observations from a re-analysis of the deposited data

Results flagged for a closer look

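In groups of 4 livers, 19 of 99 combinations of member and group held a liver whose CPM was far from the other 3 by the criterion of Dixon, where chance gives about 1 in 20 groups, or 4.95. Of these, 14 were control ASO replicate 3. That liver was the highest of its group for *Igfbp1* at 3166 CPM (others 67.0 to 91.3), *Irs2* at 305 CPM (33.3 to 39.9), *Foxo1* at 102 CPM (21.8 to 24.8) and *Ppp1r3c* at 141 CPM (20.1 to 24.9). It was also the highest for the glycolytic genes *Ldha* at 1764 CPM (304 to 401), *Gapdh* at 738 CPM (231 to 305), *Tpi1* at 571 CPM (271 to 311), *Pgk1* at 531 CPM (216 to 225), *Eno1* at 465 CPM (198 to 243), *Pgam1* at 322 CPM (120 to 146), *Pfkl* at 98.4 CPM (39.7 to 49.5) and *Khk* at 579 CPM (275 to 315), and for *Pcx* at 1009 CPM (511 to 536). It was the lowest for *Slc2a2* at 233 CPM (683 to 719).

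The other 5 lay in 4 livers. DPBS replicate 4 was the highest of its group for *Tpi1* at 281 CPM (240 to 243) and *Pgk1* at 239 CPM (201 to 206), DPBS replicate 3 for *Pdk2* at 27.7 CPM (21.2 to 21.9) and Upf3b-ASO replicate 3 for *Pcx* at 623 CPM (494 to 505). DPBS replicate 2 was the lowest for *G6pc* at 445 CPM (752 to 811). These are values of individual animals, and no explanation was tested.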

How the results depend on the processing

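With all 12 livers, 1 member was called against control ASO. The count was 8 with DESeq2, 12 with voom quality weights, 0 with the cutoffs of the study and 1 to 7 with a liver left out (2 without control ASO replicate 1, 7 without replicate 3 and 3 without replicate 4), and it stayed within 1.5 times of 1 under the other alternatives run. Against DPBS, 2 members were called. The count was 1 with no TPM filter, filterByExpr, limma with either pseudocount, the replicate block, no sex covariate or an adjusted p under 0.01, 0 with the cutoffs of the study, 10 with voom quality weights or only the 2 groups compared, and 1 to 10 with a liver left out (10 without control ASO replicate 3, 1 without any of the 8 livers compared). Control ASO against DPBS gave 0 under every alternative run.

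For the sexes the count of 1 became 0 with no TPM filter, filterByExpr, the length offset, an adjusted p under 0.01 or the cutoffs of the study, 3 with DESeq2, 6 with limma at either pseudocount, 5 with voom quality weights and 0 to 6 with a liver left out (6 without control ASO replicate 3; 0 without DPBS replicate 1 or 3, control ASO replicate 1, 2 or 4, or Upf3b-ASO replicate 1, 2 or 4). For the interaction it ran from 0 to 19 with a liver left out. The 19 came without control ASO replicate 4, which leaves replicate 3 as the remaining control male. For transcripts the count of 1 became 2 at 5 TPM, 7 with DESeq2, 0 with limma, 0 with the replicate block and 0 to 6 with a liver left out (6 without control ASO replicate 3; 0 without control ASO replicate 1, 2 or 4 or Upf3b-ASO replicate 2, 3 or 4).

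Over the 14 members with values in every liver by the rule, 938 alternatives were run: 839 kept direction and side of the threshold, 46 passed it, 18 lost it (16 of them for *Gbe1* against DPBS), 3 changed sign and were then called, and 32 changed sign with no call before or after, most of them near 0. *Khk* against control ASO was 0.26 with voom quality weights and -0.14 to 0.26 with a liver left out (0.26 without control ASO replicate 3), from -0.03, and *Gpi1* was 0.25 with voom quality weights, from -0.04. Among the uncalled sign changes, *Tpi1* against control ASO went from -0.22 to 0.01 with limma and 0.06 without control ASO replicate 3, *Pdhb* from -0.15 to 0.02 with limma, and *Pgam1* from 0.07 to -0.07 without control ASO replicate 4. Beyond the livers named as left out, the cause was not tested.

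With the replicate block, *Pck1* was called against control ASO and against DPBS (1 member in each), and *Gbe1* had -0.49 against DPBS (adjusted p 0.085). Same-numbered livers share sex. Their deviations correlated at 0.21 to 0.67 (mean 0.52), as did livers of the same sex with other numbers (mean 0.52), and beyond sex at -0.11 to 0.16 (mean 0.03), so that the numbers name no pairs beyond sex.

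With 4 animals per group, the calls of *Pgam1* and *Gpi1* against DPBS turned on the spread of control ASO replicate 3 (SE 0.22 and 0.18 with it, 0.07 and 0.08 without). The lowest count per liver was that of *Pfkfb1* (67 to 458).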
